A study of Mus musculus with 8 samples.

Results

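The collagen genes are the family whose protein chains wind into the triple helices of the extracellular matrix. They were taken by symbol alone, as Col, a type number, the letter a and a chain number. The rule uses no measured value, but it was chosen with earlier results of these data known. The array named 44 collagen genes among 22180 genes: 11 fibrillar, 8 of basement membranes, 9 FACIT (fibril-associated collagens with interrupted triple helices) and 16 others. Col21a1 was not analysed here. The samples were kidneys of 8 mouse embryos of 1 litter at E14.5, a stage of active ureteric branching. In 4 embryos, labelled Grb2 UB-cKO, Grb2 was knocked out specifically in the ureteric lineage, and 4 wild-type littermates served as controls. Both kidneys of an embryo were pooled into 1 array, so each array is a separate animal. The sources used here name neither the strain nor the Cre line or promoter behind the knockout.

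Each collagen molecule is a trimer of chains that carry glycine at every turn of the helix. Fibrillar collagens (types I, III, V and their relatives) form the load-bearing fibres laid down by mesenchymal cells. Type IV forms the sheet-like network of basement membranes under the ureteric epithelium, tubules, vessels and the future glomerulus, and types XV and XVIII lie in the basement membrane zone. FACIT collagens decorate the surface of fibrils. Type VI forms beaded microfilaments that link cells to the surrounding matrix. GRB2 is an adaptor protein that couples receptor tyrosine kinases, RET of the ureteric bud among them, to RAS and ERK signalling. The comparison asks how its loss in the ureteric epithelium changes the RNA of the whole embryonic kidney.

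All values are log2 probe-set values. They compare 1 gene between kidneys and not 1 gene with another, since probe sets differ in brightness. Array medians ran from 6.61 to 6.72. Grb2 itself was lower in every Grb2 UB-cKO kidney, at 8.06 to 8.36 against 8.61 to 8.68 (log2 fold change -0.45, SE 0.07, n = 4 per group, limma adjusted p = 0.0017). Y-linked RNA, a mark of embryo sex, split the samples nearly as the genotype did, so sex and genotype can hardly be told apart. Averaged over Eif2s3y, Kdm5d and Uty it stood at 9.94 to 10.1 in the Grb2 UB-cKO kidneys and 9.94 in control replicate 3, but at 4.09 to 4.24 in control replicates 1, 2 and 4. The embryos came from 1 litter, so p-values measure the spread between its embryos. With Y-linked RNA as a covariate Grb2 stood at -0.40 (adjusted p = 0.1), and against control replicate 3 alone at -0.41 (adjusted p = 0.164), so its call was lost in both. Collagen results are therefore also given with this mean as covariate, and against control replicate 3 alone. Both of these comparisons rest on that 1 control.

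Collagen RNA was mostly higher in the Grb2 UB-cKO kidneys. Of the 44 genes, 20 rose, 1 fell and 23 did not pass an adjusted p of 0.05 in limma. Over all 22180 genes 28.1% passed (13.7% higher and 14.3% lower), against 47.7% of the collagen genes. The median log2 fold change of the collagen genes was 0.20, against 0.0058 over all genes, and 36 of the 44 stood above 0. For 20 collagen genes every Grb2 UB-cKO kidney lay above every control, and for none did every one lie below. Over all genes 31.2% were separated in this way, 15.2% upwards and 16.0% downwards. In bulk RNA, fewer cells of a type and less RNA per cell cannot be told apart, and neither can more of either. The 20 genes that rose belonged to the fibrillar class in 6 cases, to the basement membrane class in 1, to the FACIT class in 3 and to the others in 10.

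**Figure D1:**
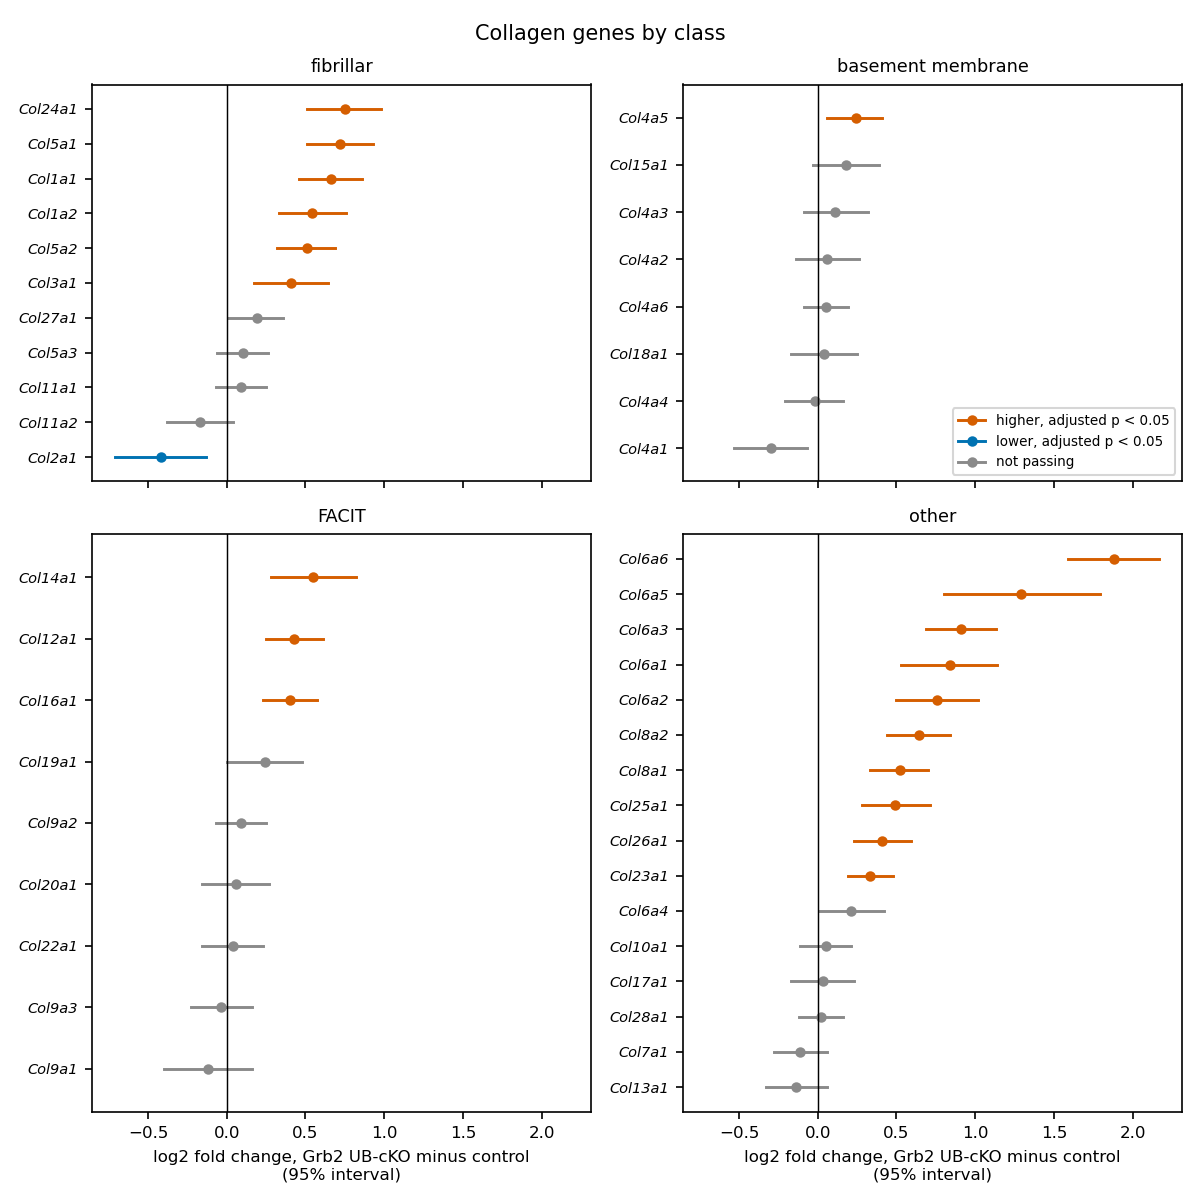
Log2 fold changes (x axis, Grb2 UB-cKO minus control, with 95% intervals from limma, n = 4 kidney pairs per group) of the 44 collagen genes in 4 classes. Most fibrillar genes and the type VI chains lie to the right of 0, up to 1.88 for Col6a6, while 7 of the 8 basement membrane genes did not pass and Col2a1, at -0.42, was lower.

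Once Y-linked RNA was entered as a covariate, 3 collagen genes passed and were higher, Col6a6, Col6a3 and Col24a1, where 2.85% of all genes were higher and 5.62% passed in either direction. At an unadjusted p under 0.05 limma had 16 collagen genes higher and 0 lower with the covariate, where 10.4% of all genes were higher and 11.1% lower. All 21 changed genes kept their sign with it, which carries little weight because the list was drawn up with control replicate 3 included. The median SE of these 21 genes went from 0.0953 to 0.152 with the covariate. Against control replicate 3 as the only control, Col6a6 alone passed (adjusted p = 0.0365), where 1.28% of all genes did. Between the mean of the other controls (0) and the mean of the Grb2 UB-cKO kidneys (1), control replicate 3 stood at a median of 0.21 over the 20 genes that rose. It was the highest control for 10 of them.

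**Figure D2:**
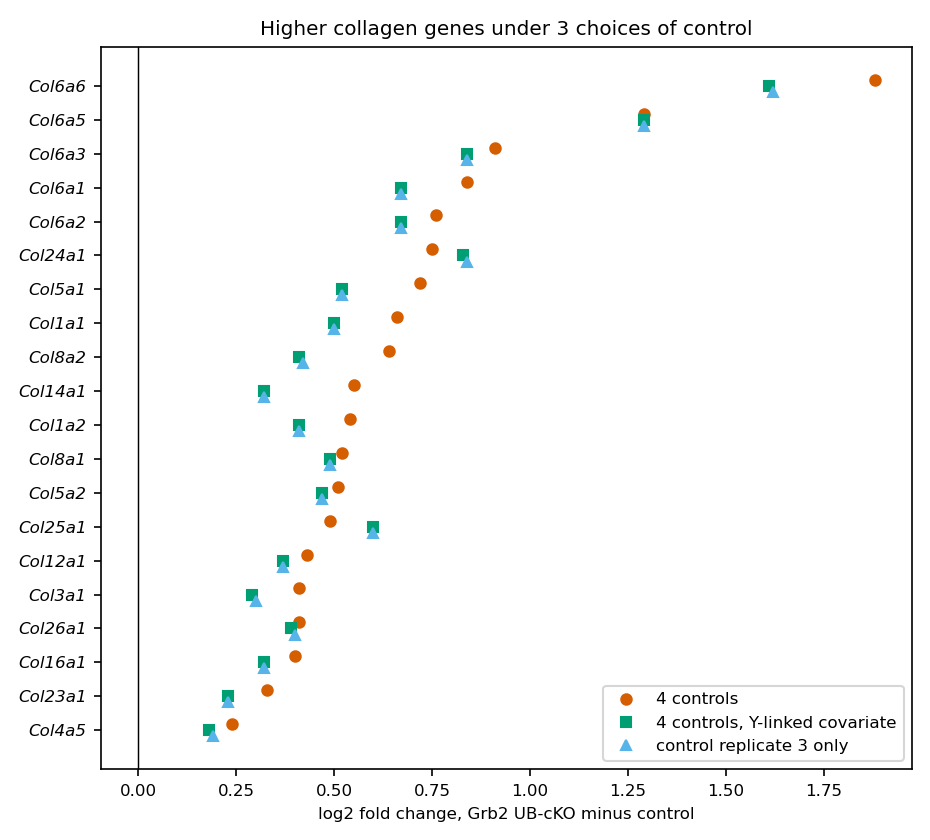
Log2 fold changes (x axis) of the 20 collagen genes that rose, with all 4 controls, with Y-linked RNA as a covariate, and against control replicate 3 alone. The last 2 nearly coincide because both rest on that kidney, and they lie below the first for 17 of the 20 genes (Col5a1 at 0.52 against 0.72), while Col6a5 is level and Col24a1 and Col25a1 lie above it.

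Type VI chains showed the largest rises. The classical molecule is built from the chains of Col6a1, Col6a2 and Col6a3, and the chains of Col6a4, Col6a5 and Col6a6 can take the place of the Col6a3 chain. In replicates 1 to 4, Col6a6 read 7.73, 7.98, 8.24 and 7.98 in controls and 9.72, 9.73, 9.82 and 10.19 in Grb2 UB-cKO kidneys. The groups were far apart, with the lowest Grb2 UB-cKO kidney well above the highest control. The rise was 3.68-fold (log2 fold change 1.88, SE 0.13, limma adjusted p = 3.72e-05), and it stood at 1.61 with the Y-linked covariate (adjusted p = 0.00649). Col6a5 read 6.18, 5.94, 5.94 and 5.71 in controls and 7.06, 6.66, 7.36 and 7.88 in Grb2 UB-cKO kidneys. Its values did not overlap either, but the Grb2 UB-cKO kidneys spread more widely (SD 0.52, against 0.19 in controls). The rise was 2.45-fold (1.29, SE 0.22, adjusted p = 0.00201), and with the Y-linked covariate Col6a5 stood at 1.29 and missed the threshold (adjusted p = 0.0803). Col6a4 stood at 0.21 (SE 0.09, adjusted p = 0.11) and its groups overlapped.

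The chains of the classical type VI molecule rose by similar amounts. Col6a3 read 9.16, 9.21, 9.18 and 8.89 in controls and 9.98, 9.86, 10.07 and 10.19 in Grb2 UB-cKO kidneys (0.91, SE 0.10, adjusted p = 0.000218). It passed with the Y-linked covariate as well, at 0.84 (adjusted p = 0.0252). Col6a1 read 10.09, 10.04, 10.13 and 9.58 in controls and 10.75, 10.55, 10.92 and 10.97 in Grb2 UB-cKO kidneys (0.84, SE 0.14, adjusted p = 0.00156). Control replicate 4 was the lowest control for both genes. Col6a2 read 9.00, 9.07, 9.04 and 8.70 in controls and 9.73, 9.44, 9.77 and 9.92 in Grb2 UB-cKO kidneys (0.76, SE 0.12, adjusted p = 0.00114). With the covariate Col6a1 and Col6a2 both stood at 0.67, and neither passed (adjusted p = 0.114 and 0.0805). A second probe set of Col6a1 gave 7.58 to 8.08 in controls and 8.46 to 8.91 in Grb2 UB-cKO kidneys, a log2 fold change of 0.99 (SE 0.13, adjusted p = 0.000587 over all named probe sets). As a subgroup, 5 of 6 type VI genes rose, with a median of 0.88. The share called was 83.3%, against 28.1% of all genes in either direction and 13.7% higher. With the Y-linked covariate 2 of the 5 calls were kept, where 2.85% of all genes were higher.

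**Figure D3:**
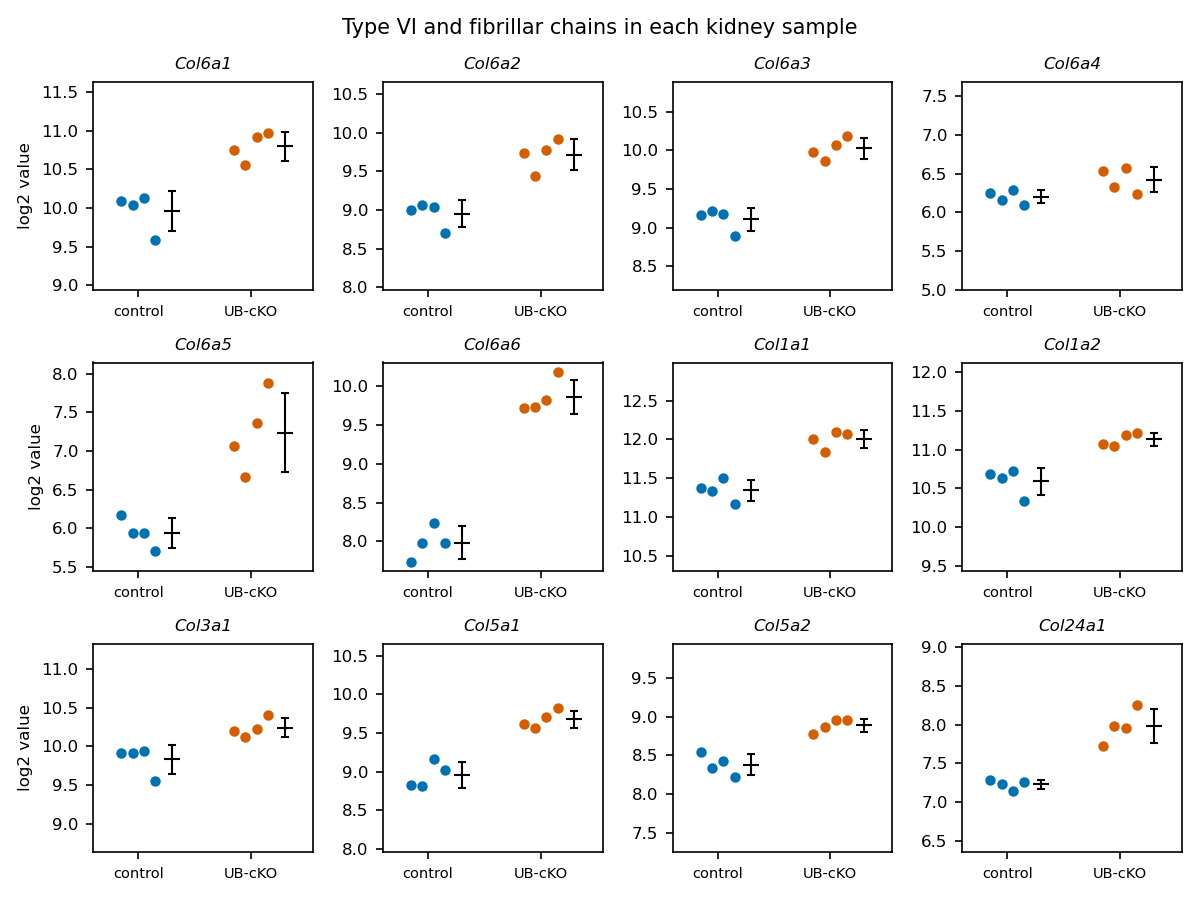
Log2 values (y axis, a span of equal height in every panel) of the 6 type VI chains and 6 fibrillar chains in each kidney pair, controls on the left and Grb2 UB-cKO on the right, with mean and SD of 4 beside the points. Every Grb2 UB-cKO point lies above every control point except in the Col6a4 panel.

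Among fibrillar collagens, 6 of 11 genes rose and 1 fell, with a median of 0.41. The share called was 63.6%, against 28.1% of all genes (13.7% higher and 14.3% lower). Type I, the main fibre of stroma, is built from the Col1a1 and Col1a2 chains. Col1a1 read 11.37, 11.33, 11.50 and 11.17 in controls and 12.00, 11.84, 12.10 and 12.07 in Grb2 UB-cKO kidneys, without overlap (0.66, SE 0.09, adjusted p = 0.000608). Col1a2 read 10.68, 10.63, 10.72 and 10.33 in controls and 11.07, 11.05, 11.19 and 11.22 in Grb2 UB-cKO kidneys (0.54, SE 0.10, adjusted p = 0.00226). Control replicate 4 was again the lowest control for both. A second probe set of Col1a2 rose by 0.78 (SE 0.09, adjusted p = 0.000248 over all named probe sets). Col3a1, the chain of the thin type III fibrils, read 9.92, 9.92, 9.94 and 9.55 in controls and 10.20, 10.12, 10.23 and 10.41 in Grb2 UB-cKO kidneys (0.41, SE 0.10, adjusted p = 0.0159). With the Y-linked covariate Col1a1 stood at 0.50, Col1a2 at 0.41 and Col3a1 at 0.29, and none passed (adjusted p = 0.0678, 0.156 and 0.375).

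Type V collagen starts and limits the diameter of type I fibrils. Col5a1 read 8.83, 8.82, 9.16 and 9.02 in controls and 9.62, 9.57, 9.71 and 9.82 in Grb2 UB-cKO kidneys (0.72, SE 0.09, adjusted p = 0.000523). A second, dimmer probe set named Col5a1 stood at 0.05 (SE 0.09, adjusted p = 0.719 over all named probe sets), at 6.80 to 7.03 in controls and 6.85 to 7.17 in Grb2 UB-cKO kidneys, so the probe sets of this gene disagree. The sources used here do not say which part of the transcript each reads. Col5a2 read 8.54, 8.34, 8.42 and 8.22 in controls and 8.78, 8.87, 8.95 and 8.95 in Grb2 UB-cKO kidneys (0.51, SE 0.08, adjusted p = 0.00161). Col24a1, a fibrillar collagen best known from bone, read 7.28, 7.24, 7.14 and 7.26 in controls and 7.72, 7.98, 7.96 and 8.26 in Grb2 UB-cKO kidneys. Its controls lay close together, and the rise of 0.75 (SE 0.11, adjusted p = 0.000757) was 0.83 with the Y-linked covariate (adjusted p = 0.0321). With that covariate Col5a1 at 0.52 and Col5a2 at 0.47 did not pass (adjusted p = 0.0599 and 0.0922).

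The fibrillar collagens best known from cartilage did not rise. Col2a1 read 7.70, 7.87, 7.59 and 7.75 in controls and 7.25, 7.70, 7.18 and 7.09 in Grb2 UB-cKO kidneys, so Grb2 UB-cKO replicate 2 lay within the controls. It fell by 0.42 on the log2 scale (SE 0.13, adjusted p = 0.0345). The call was lost without any 1 of Grb2 UB-cKO replicates 1, 3 and 4 and control replicates 1, 2 and 4, with values from -0.55 to -0.35 over all left-out kidneys, and with the Y-linked covariate (-0.29, adjusted p = 0.493). Col11a1 stood at 0.09 and Col11a2 at -0.17 (adjusted p = 0.391 and 0.219). Col5a3 stood at 0.10 and Col27a1 at 0.19 (adjusted p = 0.37 and 0.113).

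Among basement membrane collagens 1 of 8 genes rose, 7 did not pass, and the median was 0.05. That is 12.5% called, against 28.1% of all genes in either direction and 13.7% higher. The most widespread type IV molecule combines Col4a1 and Col4a2 chains. Col4a1 read 9.33, 9.35, 9.22 and 9.10 in controls and 8.71, 8.91, 9.03 and 9.14 in Grb2 UB-cKO kidneys, so Grb2 UB-cKO replicate 4 overlapped the controls. It stood at -0.30 (SE 0.10, adjusted p = 0.0517) and just missed the threshold. Centring on array medians (-0.37, adjusted p = 0.0154), array weights (-0.33, 0.0282), a trended spread (-0.30, 0.0317) and leaving out the dimmest genes (-0.30, 0.0329) put it past the threshold. So did leaving out Grb2 UB-cKO replicate 4 (-0.37, 0.0265) or control replicate 4 (-0.35, 0.0392). With the Y-linked covariate Col4a1 stood at -0.28 (adjusted p = 0.413). Col4a2 read 9.25, 9.17, 9.23 and 9.15 in controls and 9.03, 9.34, 9.24 and 9.44 in Grb2 UB-cKO kidneys, on both sides of the controls (0.06, SE 0.09, adjusted p = 0.684).

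The chains of the mature glomerular basement membrane are those of Col4a3, Col4a4 and Col4a5. Col4a3 read 6.30, 6.24, 6.04 and 6.16 in controls and 6.15, 6.23, 6.49 and 6.34 in Grb2 UB-cKO kidneys (0.11, SE 0.09, adjusted p = 0.414). Col4a4 read 6.52, 6.38, 6.23 and 6.25 in controls and 6.32, 6.31, 6.24 and 6.42 in Grb2 UB-cKO kidneys (-0.02, SE 0.08, adjusted p = 0.892). Both genes overlapped between the groups and read below the array medians of 6.61 to 6.72. The values carry no detection calls, so whether these dim probe sets read their genes was not tested. Col4a5 read 7.37, 7.17, 7.33 and 7.26 in controls and 7.40, 7.60, 7.46 and 7.63 in Grb2 UB-cKO kidneys. It rose by 0.24 (SE 0.08, adjusted p = 0.049), and the call was lost when any single kidney other than Grb2 UB-cKO replicate 1 was left out (0.20 to 0.27). It was also lost with the Y-linked covariate, at 0.18 (adjusted p = 0.492), and after quantile normalization, array median centring or a trended spread. Col4a6, whose chain joins that of Col4a5 in other basement membranes, read 6.73, 6.70, 6.69 and 6.77 in controls and 6.83, 6.72, 6.73 and 6.81 in Grb2 UB-cKO kidneys (0.05, SE 0.06, adjusted p = 0.646). Col15a1 at 0.18 and Col18a1, the source of the angiogenesis inhibitor endostatin, at 0.04 did not pass (adjusted p = 0.202 and 0.799).

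**Figure D4:**
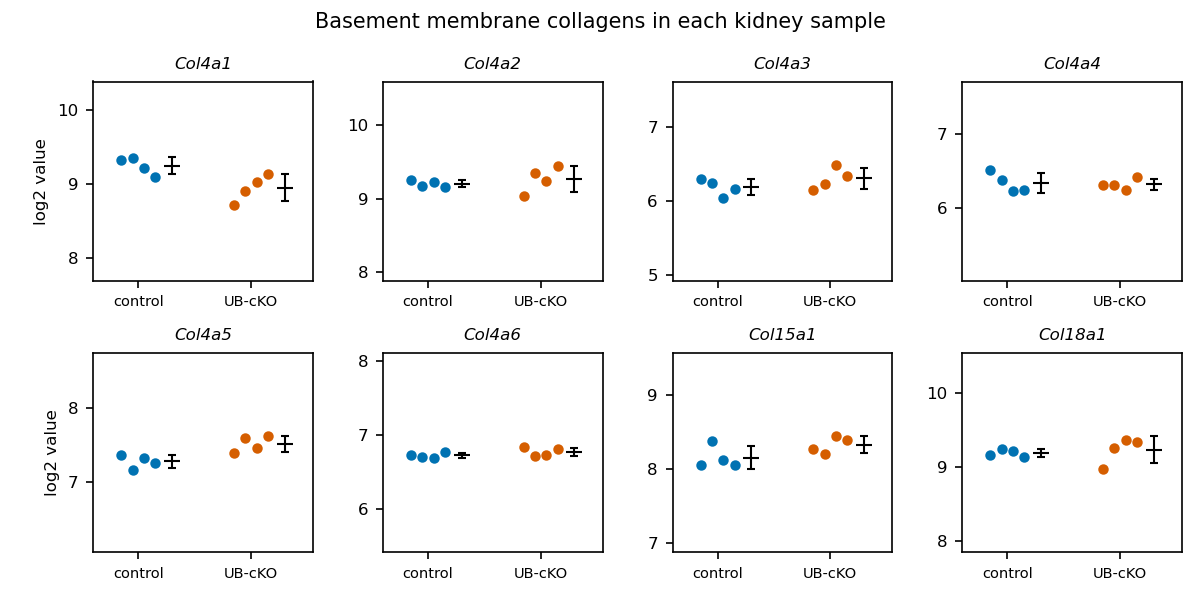
Log2 values (y axis, a span of equal height in every panel) of the 8 basement membrane collagen genes in each kidney pair, controls on the left and Grb2 UB-cKO on the right, with mean and SD of 4. The groups overlap for every gene except Col4a5, whose lowest Grb2 UB-cKO kidney (7.40) lies just above the highest control (7.37).

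Of the FACIT collagens, Col14a1, Col12a1 and Col16a1 rose, and the other 6 of 9 did not pass (class median 0.09). The share called, 33.3%, was near the 28.1% of all genes. Col14a1, which binds fibril surfaces in skin and tendon, read 9.46, 9.54, 9.72 and 9.22 in controls and 9.98, 9.85, 10.28 and 10.04 in Grb2 UB-cKO kidneys (0.55, SE 0.12, adjusted p = 0.00729). Col12a1, a close relative, read 10.41, 10.35, 10.39 and 10.19 in controls and 10.65, 10.74, 10.78 and 10.91 in Grb2 UB-cKO kidneys (0.43, SE 0.08, adjusted p = 0.00324). Neither gene overlapped between the groups. Col16a1 read 7.22, 7.26, 7.29 and 7.07 in controls and 7.50, 7.67, 7.70 and 7.56 in Grb2 UB-cKO kidneys (0.40, SE 0.08, adjusted p = 0.00381). With the Y-linked covariate they stood at 0.32, 0.37 and 0.32, and none passed (adjusted p = 0.359, 0.153 and 0.191). Type IX collagen is the FACIT of cartilage fibrils. Col9a1 stood at -0.12, Col9a2 at 0.09 and Col9a3 at -0.04 (adjusted p = 0.559, 0.417 and 0.818). Col19a1, Col20a1 and Col22a1 stood at 0.24, 0.06 and 0.04 (adjusted p = 0.137, 0.739 and 0.822).

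In the class of other collagens, type VI included, 10 of 16 genes rose (62.5% called, against 28.1% of all genes). Among those not yet named, the short-chain type VIII genes rose together. Type VIII forms open networks around vessels and in the eye. Col8a2 read 6.41, 6.34, 6.67 and 6.39 in controls and 7.04, 6.99, 7.20 and 7.13 in Grb2 UB-cKO kidneys (0.64, SE 0.09, adjusted p = 0.000729). Col8a1 ran from 6.48 to 6.67 in controls and from 7.02 to 7.31 in Grb2 UB-cKO kidneys (0.52, SE 0.08, adjusted p = 0.0014). With the Y-linked covariate they stood at 0.41 and 0.49 and missed the threshold (adjusted p = 0.0798 and 0.0778). Col26a1, a short collagen with an EMI domain, read 10.24, 10.36, 10.39 and 10.53 in controls and 10.65, 10.84, 10.80 and 10.85 in Grb2 UB-cKO kidneys (0.41, SE 0.08, adjusted p = 0.00442).

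Of the transmembrane collagens, Col25a1 and Col23a1 rose, by 0.49 (SE 0.10, adjusted p = 0.00401) and 0.33 (SE 0.07, adjusted p = 0.00449). Col25a1 ran from 7.57 to 7.87 in controls and from 8.07 to 8.34 in Grb2 UB-cKO kidneys, and Col23a1 from 8.79 to 8.95 and from 9.14 to 9.26. Col13a1 and Col17a1, the latter a component of hemidesmosomes, stood at -0.14 and 0.03 (adjusted p = 0.3 and 0.855). With the Y-linked covariate Col25a1 stood at 0.60 (adjusted p = 0.06), Col23a1 at 0.23 (0.255) and Col26a1 at 0.39 (0.137). Col7a1, the anchoring fibril gene, stood at -0.11, Col10a1, the gene of hypertrophic cartilage, at 0.05, and Col28a1 at 0.02 (adjusted p = 0.321, 0.693 and 0.883).

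Since chains of a trimer are needed together, the log2 difference between partner chains was compared between the groups for 13 pairs. No pair passed after adjustment over the 13 (exact two-sided permutation test over 70 assignments of kidneys, smallest possible p 0.0286, which a single pair cannot carry past the adjustment), and 2 had an unadjusted p under 0.05. Col4a1 minus Col4a2 was -0.05 to 0.17 in controls and -0.43 to -0.21 in Grb2 UB-cKO kidneys, a change of -0.36 (exact permutation p = 0.0286, adjusted p = 0.186). Col4a1 minus Col4a3, chains of different type IV networks, changed by -0.42 (exact permutation p = 0.0286, adjusted p = 0.186). Of the type VI pairs, Col6a1 minus Col6a2 stood at 0.08 (exact permutation p = 0.257, adjusted p = 0.371) and Col6a1 minus Col6a3 at -0.07 (exact permutation p = 0.343, adjusted p = 0.402). Col1a1 minus Col1a2 was 0.75 ± 0.07 in controls and 0.87 ± 0.06 in Grb2 UB-cKO kidneys (SD, n = 4, exact permutation p = 0.0571, adjusted p = 0.223). Its change of 0.11 became -0.0 when the probe sets of each gene were averaged (exact permutation adjusted p = 0.929). A missed threshold does not show that partner chains moved alike.

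Several collagen genes lie next to each other in the genome, with no coding gene between them in the RefSeq table. Of the neighbours Col6a6, Col6a5 and Col6a4 on chromosome 9, the first 2 rose (1.88 and 1.29) and Col6a4 stood at 0.21. Col6a2 and Col6a1 on chromosome 10 rose by 0.76 and 0.84, and Col3a1 and Col5a2 on chromosome 1 by 0.41 and 0.51. The type IV genes are arranged in such pairs too. Col4a1 and Col4a2 on chromosome 8 stood at -0.30 and 0.06, Col4a4 and Col4a3 on chromosome 1 at -0.02 and 0.11, and Col4a6 and Col4a5 on the X chromosome at 0.05 and 0.24.

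Sequence upstream of 6 of the collagen genes that rose is shown. Whether these genes share any regulation was not tested. RefSeq windows of 300 bases (250 before and 50 after a transcript start, GRCm38.p6) matched 35 of the 44 genes, with 38 windows. Those of Col1a1, Col2a1, Col4a3, Col5a2, Col9a3, Col12a1, Col14a1, Col22a1 and Col26a1 were not used here. Each line reads 5′ to 3′ on the gene's strand and ends at the base before the outermost annotated start of the gene. For Col6a6 and Col6a3 the start used for the window lies 162 and 31 bases downstream of the last base shown, so the Col6a6 stretch is shorter. Capitals mark motif letters, searched on both strands. The CCAAT box was searched as CCAAT and the GC box, which can overlap itself, as GGGCGG. The TATA box was searched by its letters TATAAA. The AP-1 site was searched as TGANTCA, with N for any base, and the TEAD site by the letters GGAATG.
Col6a6, chr9:105828247-105828335, minus strand: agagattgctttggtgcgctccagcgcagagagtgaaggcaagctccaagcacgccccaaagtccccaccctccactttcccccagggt
Col6a3, chr1:90844002-90844151, minus strand: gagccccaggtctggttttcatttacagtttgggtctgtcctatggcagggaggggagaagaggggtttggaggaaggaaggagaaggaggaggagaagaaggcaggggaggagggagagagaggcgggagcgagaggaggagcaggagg
Col6a1, chr10:76726045-76726194, minus strand: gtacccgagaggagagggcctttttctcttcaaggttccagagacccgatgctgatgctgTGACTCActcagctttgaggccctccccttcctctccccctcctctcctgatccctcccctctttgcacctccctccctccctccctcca
Col1a2, chr6:4505468-4505617, plus strand: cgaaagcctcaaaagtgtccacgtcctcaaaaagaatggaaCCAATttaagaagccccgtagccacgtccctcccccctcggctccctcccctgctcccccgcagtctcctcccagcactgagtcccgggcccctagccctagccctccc
Col8a1, chr16:57754738-57754887, minus strand: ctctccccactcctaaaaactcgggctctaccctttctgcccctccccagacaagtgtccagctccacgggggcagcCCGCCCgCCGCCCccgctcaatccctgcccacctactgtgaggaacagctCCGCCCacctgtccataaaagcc
Col8a2, chr4:126286644-126286793, plus strand: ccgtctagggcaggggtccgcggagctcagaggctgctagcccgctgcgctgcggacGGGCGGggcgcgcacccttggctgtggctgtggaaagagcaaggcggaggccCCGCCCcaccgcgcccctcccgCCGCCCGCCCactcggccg

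No motif was shared by all 6 stretches. The GC box letters stood in those of Col8a1 and Col8a2, the CCAAT box in that of Col1a2 and the AP-1 letters in that of Col6a1. Over the whole windows, the GC box letters were in 60.5% of collagen windows and in 35.7% of all 32851 windows. They were in the windows of 11 of 15 matched genes that rose and 11 of 20 that did not pass. The CCAAT letters were in 34.2% of collagen windows and 37.4% of all, the TATA letters in 13.2% and 13.6%, the TEAD letters in 13.2% and 14.7%, and the AP-1 letters in 2.63% and 7.81%. These are counts of letters and not of sites in use.

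Genes that make, process and bind collagen were higher in part. Of 22 genes of synthesis, folding and secretion, 10 rose, 1 fell and 11 did not pass (median 0.20). Among all genes 28.1% passed, 13.7% higher and 14.3% lower. Creb3l1, a transcription factor of secretory cells that activates collagen genes, rose by 0.97 (SE 0.07, adjusted p = 3.72e-05). Plod2, a lysyl hydroxylase that sets the type of cross-link, rose by 0.73 (SE 0.07, adjusted p = 0.000174). P3h3, of the prolyl 3-hydroxylase family, rose by 0.64 (SE 0.08, adjusted p = 0.000463), and P4ha3, a catalytic subunit of prolyl 4-hydroxylase, by 0.70 (SE 0.10, adjusted p = 0.000896). Of the 11 changed genes, 5 passed with the Y-linked covariate, these 4 among them. The 1 gene that fell was P4hb, the other subunit of prolyl 4-hydroxylase and a protein disulfide isomerase, at 11.34 to 11.43 in Grb2 UB-cKO kidneys against 11.57 to 11.62 in controls. P4hb fell by 0.22 (SE 0.06, adjusted p = 0.0202). Its call was lost without Grb2 UB-cKO replicate 3 or control replicate 2, which leaves 0 genes lower. Serpinh1, the collagen chaperone HSP47, stood at -0.08, and Ppib, a proline isomerase of the endoplasmic reticulum, at -0.07 (adjusted p = 0.628 and 0.658). These 3 genes were chosen after their values were seen.

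Of 12 genes that trim or cross-link procollagen, 8 rose, 1 fell and 3 did not pass (median 0.49). That is 75.0% called, against 28.1% of all genes. Bmp1, the protease that removes the C-terminal propeptide, rose by 0.69 (SE 0.07, adjusted p = 0.000203). Adamts3, a protease of the N-terminal propeptide, rose by 0.98 (SE 0.10, adjusted p = 0.000209). Loxl3 and Loxl1, of the lysyl oxidase family, both rose by 0.98 (SE 0.12 and 0.13, adjusted p = 0.000405 and 0.000494). Of the 9 changed genes, 3 passed with the Y-linked covariate, and Loxl1, at 0.83, did not (adjusted p = 0.0507). The 1 gene that fell was Pcolce2, an enhancer of the C-terminal protease, at -0.55 (SE 0.13, adjusted p = 0.0103), named after its value was seen, while its relative Pcolce rose by 0.55.

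Of 9 collagen receptors, 4 rose and 5 did not pass (median 0.20), so 44.4% were called, against 28.1% of all genes. Array median centring, quantile normalization or averaging the probe sets of a gene each gave 3 receptors higher. Ddr2, a receptor tyrosine kinase for fibrillar collagen, stood at 10.21 to 10.37 in controls and 10.90 to 11.11 in Grb2 UB-cKO kidneys (0.72, SE 0.07, adjusted p = 0.000178). Mrc2, an endocytic collagen receptor, rose by 0.62 (SE 0.08, adjusted p = 0.00047) and Ddr1 by 0.40 (SE 0.09, adjusted p = 0.0061). Ddr1 has 2 probe sets, of which the brighter was used, and no other receptor measured has more than 1. The receptor lost on averaging was therefore Ddr1, so its rise depends on the probe set. Ddr2 and Mrc2 passed with the Y-linked covariate. Itga11, a collagen-binding integrin, stood at 0.55 (SE 0.17, adjusted p = 0.0376) and lost the threshold without Grb2 UB-cKO replicate 2 or any 1 of the 4 controls. Itgb1, its partner chain, stood at -0.05 (adjusted p = 0.626).

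**Figure D5:**
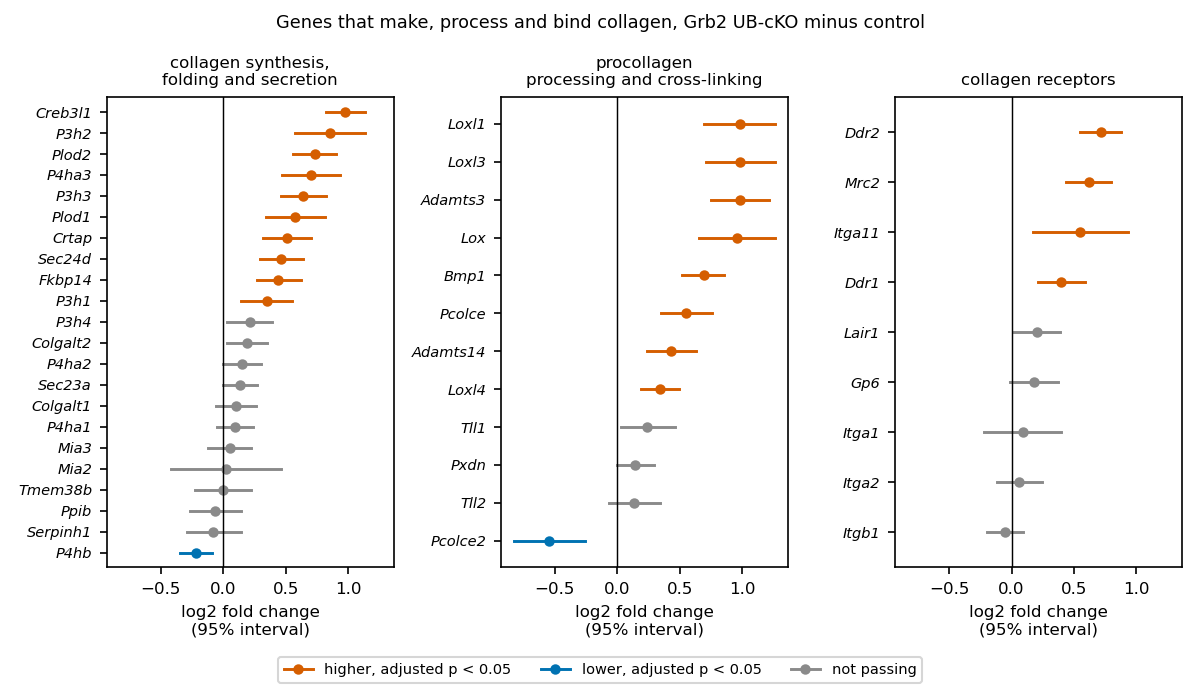
Log2 fold changes (x axis, Grb2 UB-cKO minus control, with 95% intervals from limma, n = 4 kidney pairs per group) of 22 synthesis, 12 processing and 9 receptor genes. The 4 lysyl oxidase genes measured, Lox (0.96), Loxl1 (0.98), Loxl3 (0.98) and Loxl4 (0.34), all rose, and the genes that fell were P4hb and Pcolce2.

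Markers of several cell types moved beside the collagen genes, and their part in the collagen result was not tested. Of 11 stroma markers 9 rose, and their mean log2 value was 10.53 to 10.70 in controls and 11.14 to 11.31 in Grb2 UB-cKO kidneys. Of 11 endothelial markers 7 rose (9.73 to 9.81 against 10.03 to 10.29), and 3 of 8 ureteric mesenchyme and smooth muscle markers rose (8.65 to 8.96 against 9.06 to 9.51). The endothelial marker Kdr lost its call without Grb2 UB-cKO replicate 3 or 4 or any 1 of the controls. With 1 kidney left out, 6 to 8 endothelial markers were higher, and after array median centring 5. All 5 podocyte markers rose (8.78 to 8.95 against 9.26 to 9.92), but Nphs1 overlapped between the groups. Nphs1 and Wt1 both lost their calls without Grb2 UB-cKO replicate 3, Grb2 UB-cKO replicate 4 or control replicate 2, which leaves 3 podocyte markers higher. Higher values were also called for 6 of 7 macrophage markers (7.21 to 7.47 against 8.29 to 8.72) and for all 4 erythroid markers (6.94 to 7.73 against 8.17 to 8.62). Markers of the ureteric epithelium fell in 9 of 10 cases (9.23 to 9.31 against 8.08 to 8.45) and those of nephron progenitors in 6 of 7 (10.17 to 10.34 against 8.79 to 9.38). The ureteric marker Hoxb7 lost its call without Grb2 UB-cKO replicate 2 or 3 or control replicate 2, 3 or 4, which leaves 8 ureteric markers lower. Of neighbouring or admixed tissue, 3 of 5 skeletal muscle markers rose (5.92 to 6.16 against 6.46 to 6.74). Of these, Myod1 overlapped between the groups and lost its call without Grb2 UB-cKO replicate 1 or 3 or control replicate 1, 2 or 3. Leaving out 1 kidney gave 2 or 3 muscle markers higher. Of 4 Schwann cell markers 2 fell (7.11 to 7.32 against 6.89 to 7.15), Erbb3 (-0.74) and Mbp (-0.28). The others, Sox10 (-0.02) and Foxd3 (0.12), did not pass. Of 8 cartilage markers 1 passed (6.43 to 6.56 against 6.46 to 6.54). The cartilage marker was Acan (0.28, adjusted p = 0.0481), whose groups overlapped and whose call was lost when any single kidney other than control replicate 3 was left out. Over all genes, the share that passed went from 28.1% to 5.62% once Y-linked RNA was a covariate. With it, 0 of the 7 endothelial, 5 podocyte, 3 skeletal muscle, 2 Schwann cell and 1 cartilage calls were kept. Of the stroma calls 5 of 9 were kept, with 2 of 3 for ureteric mesenchyme and smooth muscle, 3 of 6 for macrophages and 1 of 4 for erythroid cells. Of the ureteric epithelium calls 5 of 9 were kept, and of the nephron progenitor calls 3 of 6. Of 6 adrenal and gonad markers 0 passed in limma, and 0 had an unadjusted p under 0.05 (5.74 to 5.86 against 5.69 to 5.97). The values carry no detection calls, so absence of a marker could not be read from them.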

How the data were processed

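Kidneys of 4 Grb2 UB-cKO and 4 control embryos were measured on 1-colour arrays from 200 ng of total RNA each, per the labels' protocols. The deposited values are log2 probe-set values made by the authors with the Transcriptome Analysis Console (no version given), per the submitters' processing notes. The scale is inferred from the range of the deposited log2 values (1.25 to 14.08). The sources used here give no background correction, summarization or normalization, and nothing was normalized again. Scan dates were not used here, so no batch was tested. Replicates were numbered in the order of their records and pair nothing.

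Of 41345 probe sets, 23521 had 1 symbol in the platform annotation, 1814 had several and 16010 had none in the table used here. Symbols were updated through Entrez identifiers to the GRCm38.p6 RefSeq table for 23328. The probe set of highest mean over the 8 arrays stood for each gene, leaving 22180 genes.

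Groups were compared in limma 3.58.1 (R 4.3.3), with lmFit and eBayes on all genes, Benjamini-Hochberg adjustment over all of them and a threshold of 0.05. Log2 fold changes are Grb2 UB-cKO minus control with moderated SE. With 4 arrays a group, their number limits the precision. The model was tested on simulated data with independent noise and no Y-linked split, so that test says nothing about the split seen here. Genes on the lists but not measured were not analysed here.

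All collagen genes were named. Values of each array were given for up to 6 changed members per class of largest change, types I, III and IV, and the member of highest mean per class. Of each other list, up to 4 genes of smallest p were named. The collagen members, classes, lists and pairs were chosen with earlier results of these data known. Alternatives were other normalizations, probe sets, spread models and thresholds, a Y-linked covariate and leaving out each embryo. Control replicate 3 as the only control and the other probe sets were added after seeing the data.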

Additional observations from a re-analysis of the deposited data

Results flagged for a closer look

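In 4 of the 88 gene and group combinations tested, 1 kidney stood far from the other 3 of its group, measured as its gap to the nearest value over the range of the group and compared with Dixon's 95% critical value. Chance flags about 1 in 20 groups. In all 4 the kidney was control replicate 4, which lay below the other controls. The ratio was 0.933 for Col3a1, 0.847 for Col6a1, 0.833 for Col6a3 and 0.895 for Col9a1. Without control replicate 4 the log2 fold changes were 0.31 for Col3a1 (limma adjusted p = 0.0242), 0.71 for Col6a1 (0.00194), 0.84 for Col6a3 (0.00059) and -0.21 for Col9a1 (0.217), each on the same side of the threshold as with it. Control replicate 4 was the lowest control for 12 of the 20 collagen genes that rose, and Grb2 UB-cKO replicate 4 was the highest of its group for 13 of them.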

How the results depend on the processing

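The 20 rises among collagen genes became 19 to 21 when any 1 kidney was left out, and the 1 fall became 0 or 1. Of the 20, 19 passed in every such comparison, and Col4a5 was the exception. With the Y-linked covariate limma called 3 collagen genes higher and 0 lower: 1 fibrillar, 0 basement membrane, 0 FACIT and 2 other genes. Unadjusted, 16 were higher (5 fibrillar, 0 basement membrane, 2 FACIT, 9 other) and 0 lower, against 10.4% and 11.1% of all genes. Synthesis, processing and receptor genes then numbered 10 higher and 0 lower (21 and 0 unadjusted), against 22 and 2. Against control replicate 3 alone, 1 collagen gene was higher, of the other class, and 0 in the fibrillar, basement membrane and FACIT classes, with 0 lower (16 and 0 unadjusted, against 10.1% and 11.0% of all genes). Of synthesis, processing and receptor genes 1 was higher and 0 lower (20 and 1 unadjusted). The cause of these losses was not tested, and both comparisons rest on 1 control.

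Array median centring, array weights, a trended and robust spread and leaving out the dimmest genes each gave 2 collagen genes lower, with Col4a1 as the 1 added basement membrane gene. Quantile normalization, median centring and the trended spread left 0 basement membrane genes higher. At a threshold of 0.01, 0 collagen genes were lower, 0 basement membrane genes higher and 0 synthesis, processing and receptor genes lower. Leaving out 1 kidney gave 0 or 1 basement membrane genes higher, 0 or 1 lower, 0 or 1 fibrillar genes lower and 1 or 2 synthesis, processing and receptor genes lower. No alternative turned the sign of a changed collagen gene. Array median centring moved the all-gene median most, by -0.067 on the log2 scale. The cause was not tested for any of these. The 13 chain pairs are no measure of stability, since with a smallest exact permutation p of 0.0286 a single pair cannot pass the adjustment.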
